A study of Homo sapiens with 12 samples.

Results

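The 52 genes described here act in G2 phase and mitosis: the cyclins and kinases of mitotic entry, the spindle checkpoint, kinetochores, spindle motors, cytokinesis and the release of sister chromatids. They were taken as a list of known genes and matched by symbol to the 57820 gene identifiers of the count files, of which 16060 had enough reads to be tested, and all 52 were matched and tested. The RNA came from 2 established human cell lines, TE10 and Kyse410, both from squamous carcinoma of the esophagus. Cells had been stably infected to express either a hairpin RNA that targets UHRF1 (shRNA) or a scramble hairpin as the control. The 4 groups, TE10 with the scramble, TE10 with the UHRF1 shRNA, Kyse410 with the scramble and Kyse410 with the UHRF1 shRNA, had 3 libraries of polyadenylated RNA each. No other treatment is given for these libraries, and neither the number of hairpin sequences nor separate cultures for the 3 libraries are stated, so p-values measure the spread between libraries, which may be technical.

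UHRF1, a ubiquitin ligase that binds hemimethylated DNA after replication, was read first as a check of the labels. Its level was 173, 179 and 184 CPM (the gene's reads relative to the scaled library total) in the TE10 scramble libraries and 82.1, 86.8 and 88.9 with the shRNA, which left 48.1% (log2 fold change -1.06 ± 0.053, adjusted p = 3.22e-23, edgeR's quasi-likelihood test with Benjamini-Hochberg adjustment over all tested genes, used throughout). In Kyse410 the scramble libraries read 101, 101 and 95.1 CPM and the shRNA libraries 42.1, 43.5 and 41.9, which left 42.9% (-1.22 ± 0.057, adjusted p = 1.62e-24). The log2 loss was not called different between the lines (-0.16 ± 0.079, adjusted p = 0.093). Changes of single genes, also where they are said to rise or fall by a value, are log2 fold changes of shRNA against scramble unless another comparison is named. Values after ± are standard errors (SE) for log2 fold changes and SDs of 3 libraries for levels. The libraries held 7857662 to 12005229 gene reads, and a member's reads in a library ranged from 79 to 9023. Replicates of a group differed by more than counting error (chi-square per degree of freedom 1.57 to 2.92).

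Entry into mitosis is driven by CDK1 bound to cyclin B, which WEE1-type kinases hold back and CDC25 phosphatases release. The spindle checkpoint then restrains the anaphase-promoting complex (APC/C) until every kinetochore is attached, after which the APC/C has securin and cyclin B degraded and separase cuts the cohesin that joins sister chromatids. Many of these genes are transcribed late in the cell cycle, through a complex in which MYBL2 and FOXM1 join the MuvB core at a promoter element called CHR, and are silenced in resting cells by the related DREAM complex. In proliferating cultures their RNA level therefore follows both how many cells are dividing and how much each makes. In bulk RNA, more cells in G2 or mitosis and more RNA per cell cannot be told apart.

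With the UHRF1 shRNA most members rose in Kyse410, while in TE10 they split. In Kyse410, 35 members rose and 4 fell, where 22.6% of all tested genes were called higher and 26.7% lower (49.3% in either direction). Their median log2 fold change was 0.28, beside -0.03 over all tested genes, with a range of -0.53 to 0.79. In TE10, 10 members rose and 15 fell, against 18.8% and 20.0% of all tested genes (38.8% in either direction), and the median was -0.01 beside 0.00, with a range of -0.38 to 0.45. No member moved as far as 2-fold in either line, while 1244 of the 16060 tested genes did so in TE10 and 1199 in Kyse410. As shares of the list, 67.3% rose and 7.69% fell in Kyse410, and 19.2% rose and 28.8% fell in TE10, where the share that rose is near its background. The balance of rises and falls in TE10 depended on the method, with 11 rising and 10 falling in DESeq2. The balance over all tested genes did so too, with 3019 rising and 3212 falling in edgeR and 2644 and 2438 in DESeq2.

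The response was tested between the lines as the Kyse410 change minus the TE10 change. It was higher in Kyse410 for 34 members and lower for 2, MYBL2 and ECT2, against 19.0% and 19.9% of all tested genes (38.9% in either direction), with a median difference of 0.28 beside -0.01 over all tested genes. Between the scramble controls, 47 members were lower in Kyse410 than in TE10 and 3 were higher, against 37.1% and 36.7% of all tested genes (73.7% in either direction), and the median was -0.96 beside 0.00. The comparisons between the lines use the same scramble libraries as the knockdown comparisons, so their values are given side by side and their likeness is not used as a result.

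The mean of log2(CPM + 1) over the 52 members shows both patterns in single libraries. It was 7.036, 7.015 and 7.045 in the TE10 scramble libraries and 6.989, 7.014 and 7.003 with the shRNA, so that the shRNA libraries lie just under the scramble libraries. In Kyse410 it was 6.09, 6.10 and 6.07 with the scramble and 6.34, 6.38 and 6.38 with the shRNA, with no overlap. All 6 Kyse410 libraries lay under all 6 TE10 libraries. The median member stood at 51.2% of the TE10 scramble level in Kyse410 scramble cells and at 63.4% of it in Kyse410 cells with the shRNA.

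**Figure D1:**
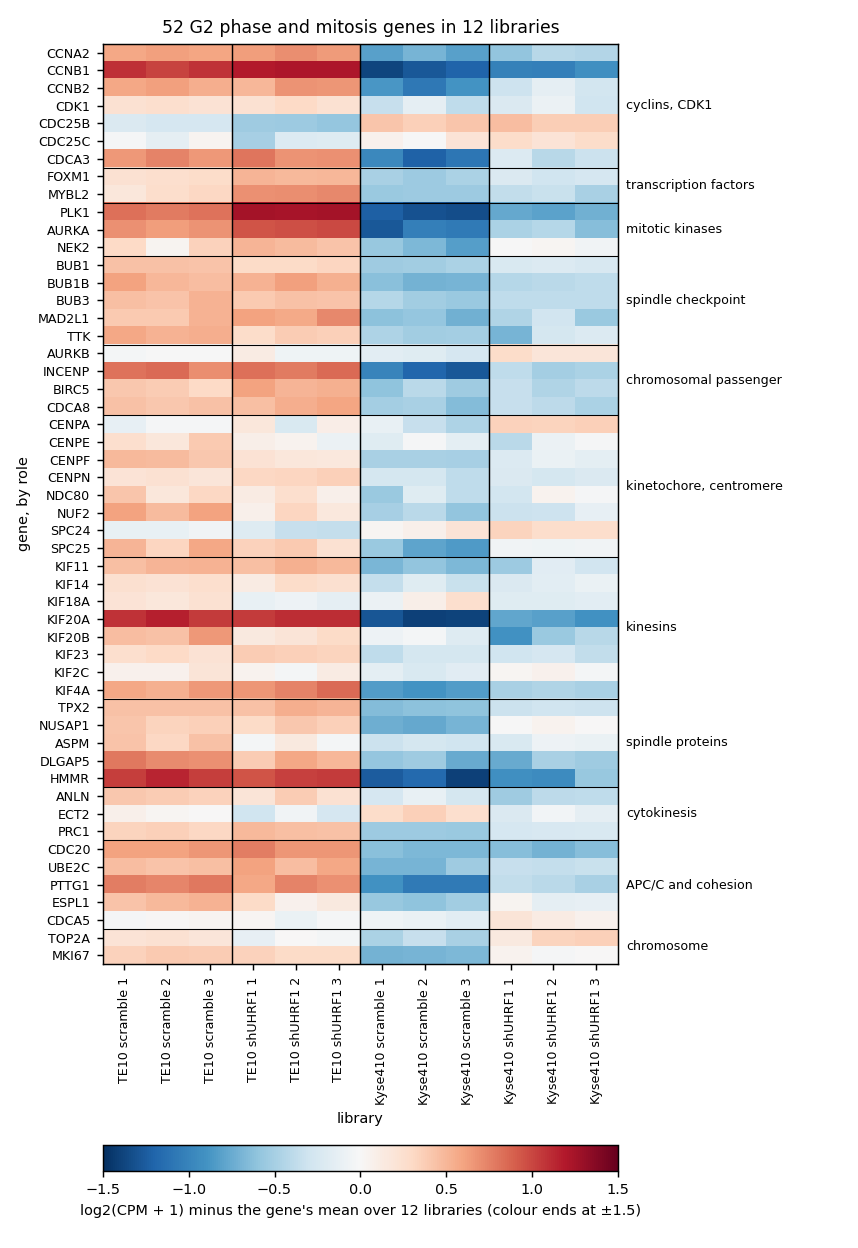
Each row is 1 of the 52 genes, ordered by role, and each column 1 of the 12 libraries; colour is log2(CPM + 1) minus the gene's mean over the 12 libraries, red for above and blue for below. Most rows are red in the 6 TE10 columns and blue in the Kyse410 scramble columns, and paler in the 3 Kyse410 shRNA columns; CDC25B, ECT2 and SPC24 run the other way between the scramble controls.

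The members can be sorted by their calls in the 2 lines, which share no library. The 9 that rose in both were CCNB1, FOXM1, MYBL2, PLK1, AURKA, NEK2, MAD2L1, KIF4A and PRC1, where 6.96% of all tested genes did so. The 4 that fell in both were KIF18A, KIF20B, ANLN and ECT2 (9.03% of all tested genes). The 7 that fell in TE10 and rose in Kyse410 were BUB1, CENPF, NUF2, SPC24, ASPM, ESPL1 and TOP2A (3.63%), and none did the reverse (4.29%). A further 19 rose in Kyse410 with no call in TE10, BIRC5 rose with a call in TE10 alone, and CDC25B, TTK, CENPE and DLGAP5 fell with a call in TE10 alone. The 8 without a call in either line were CDK1, CDC25C, BUB3, CDCA8, CENPN, KIF14, KIF23 and CDC20. Across the 52 members the log2 fold changes of the 2 lines had a Pearson correlation of 0.30 and a Spearman correlation of 0.22, beside 0.36 and 0.21 over all 16060 tested genes, given as a description.

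**Figure D2:**
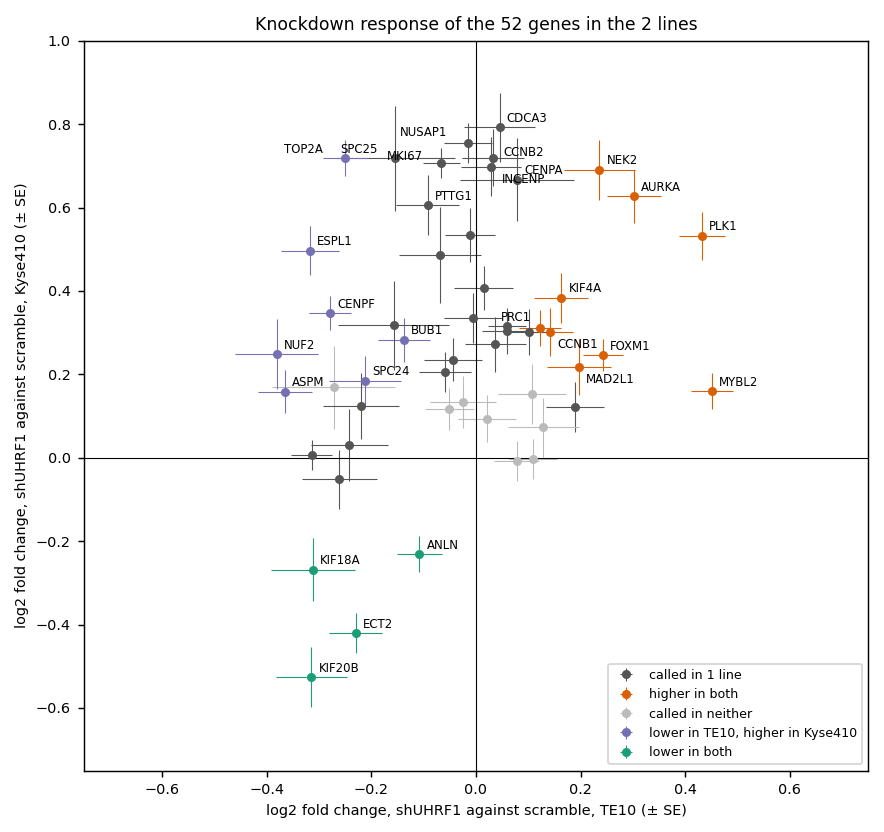
Each point is 1 of the 52 genes, with its log2 fold change with the UHRF1 shRNA in TE10 on the x axis and in Kyse410 on the y axis; bars are ± SE and colours give the calls in the 2 lines. Most points lie above 0 on the y axis while the x axis is split, with TOP2A, ESPL1, CENPF and NUF2 at the upper left and KIF20B, ECT2, KIF18A and ANLN at the lower left.

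Promoter sequences from RefSeq (GRCh38.p14) were searched because these genes share regulatory letters by which they are usually recognised. In the 250 bases before the start, on both strands, the letters TTTGAA or TTCGAA (CHR), CCAAT (bound by NF-Y, ATTGG on the other strand) and TTTGGCGC or TTTCGCGC (E2F) were counted. Of the 52 members, 45 are in the table. CHR letters stood before 25 of them (55.6%, against 17.2% of 27305 genes), CCAAT before 37 (82.2% against 37.0%) and E2F letters before 2 (4.4% against 1.2%). A window with both CHR and CCAAT was found for 22 members (48.9% against 6.2%). TTK, TPX2, BIRC5, FOXM1, UBE2C, AURKA and BUB3 are not in the table. The share counts a gene if any of its listed starts has the letters, and a match is a description of the sequence, not a site in use.

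The printed promoters are those of members on which the results turn, 200 bases up to the base before the start, 5′ to 3′ on the gene's strand, with CHR and CCAAT letters of either strand in capitals. CCNB2 lies at chr15:59104946-59105145 (plus strand), PLK1 at chr16:23678689-23678888 (plus strand) and ESPL1 at chr12:53268099-53268298 (plus strand). TOP2A lies at chr17:40417897-40418096 (minus strand) and MKI67 at chr10:128126424-128126623 (minus strand). MYBL2 lies at chr20:43666914-43667113 (plus strand), ECT2 at chr3:172750526-172750725 (plus strand) and KIF18A at chr11:28108157-28108356 (minus strand).
CCNB2: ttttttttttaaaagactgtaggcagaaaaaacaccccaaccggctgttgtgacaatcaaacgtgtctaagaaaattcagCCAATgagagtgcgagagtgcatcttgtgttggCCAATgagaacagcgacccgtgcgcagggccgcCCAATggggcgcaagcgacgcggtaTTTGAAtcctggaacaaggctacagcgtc
PLK1: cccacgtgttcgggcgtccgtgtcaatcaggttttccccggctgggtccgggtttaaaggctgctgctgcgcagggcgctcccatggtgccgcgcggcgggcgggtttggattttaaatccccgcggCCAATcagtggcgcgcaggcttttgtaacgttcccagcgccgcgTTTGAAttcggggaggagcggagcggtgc
ESPL1: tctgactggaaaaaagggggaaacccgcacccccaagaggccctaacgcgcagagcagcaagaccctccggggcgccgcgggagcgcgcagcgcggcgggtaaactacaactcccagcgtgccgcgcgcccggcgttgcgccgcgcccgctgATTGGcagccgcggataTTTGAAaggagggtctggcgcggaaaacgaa
TOP2A: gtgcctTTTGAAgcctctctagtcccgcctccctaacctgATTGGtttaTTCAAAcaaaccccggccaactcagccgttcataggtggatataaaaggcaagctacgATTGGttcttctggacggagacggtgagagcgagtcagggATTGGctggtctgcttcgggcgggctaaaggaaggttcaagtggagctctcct
MKI67: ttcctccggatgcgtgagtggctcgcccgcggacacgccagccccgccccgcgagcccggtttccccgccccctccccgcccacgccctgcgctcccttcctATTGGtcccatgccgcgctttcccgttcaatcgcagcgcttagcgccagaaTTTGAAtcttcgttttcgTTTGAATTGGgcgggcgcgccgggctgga
MYBL2: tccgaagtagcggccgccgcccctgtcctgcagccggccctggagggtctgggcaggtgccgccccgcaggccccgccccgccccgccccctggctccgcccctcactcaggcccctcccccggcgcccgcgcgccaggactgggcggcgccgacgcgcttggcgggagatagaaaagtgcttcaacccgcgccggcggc
ECT2: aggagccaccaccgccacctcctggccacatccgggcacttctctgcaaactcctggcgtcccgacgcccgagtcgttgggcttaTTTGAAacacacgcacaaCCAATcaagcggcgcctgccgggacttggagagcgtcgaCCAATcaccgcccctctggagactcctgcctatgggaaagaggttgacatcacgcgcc
KIF18A: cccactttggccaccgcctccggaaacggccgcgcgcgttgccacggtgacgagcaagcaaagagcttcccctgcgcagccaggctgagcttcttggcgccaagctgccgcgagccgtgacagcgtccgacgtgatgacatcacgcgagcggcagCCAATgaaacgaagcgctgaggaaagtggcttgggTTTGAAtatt
CCNB2 (cyclin B2), PLK1, ESPL1 and MKI67 carry CHR letters that begin 29, 29, 31 and 29 bases before the start. MKI67 has a further CHR match 47 bases before the start, and its nearer match runs into CCAAT letters (TTTGAATTGG). TOP2A has its CHR letters 194 and 151 bases before the start, and ECT2 has those in the printed stretch 115 bases before it. KIF18A, which fell in both lines, has CHR letters 10 bases before the start and CCAAT letters 45 bases before it, while none of the searched letters are in the MYBL2 window. Only these exact letters were searched, so other forms of the same elements were not counted.

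**Figure D3:**
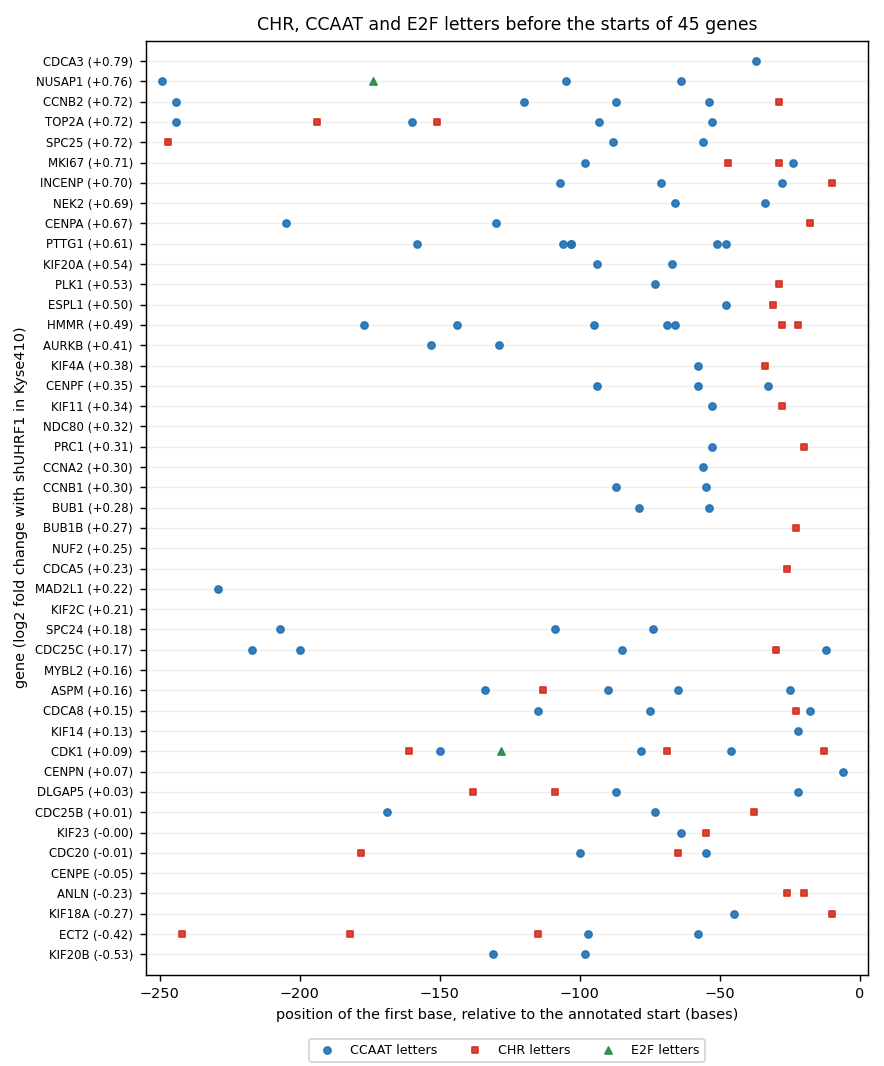
Rows are the 45 members in the promoter table, ordered by the log2 fold change in Kyse410 given beside each name; the x axis is the distance in bases from the annotated start to the first base of a match, over all listed starts of a gene. CHR letters cluster near the start in many rows, and rows with and without them are found at every height.

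The medians of members with and without CHR letters lay close to each other. In Kyse410, 15 of the 25 with CHR letters rose and 3 fell, with a median log2 fold change of 0.27, and 16 of the 20 without them rose and 1 fell, with a median of 0.29. In TE10 the medians were -0.04 and -0.02, with 3 rising and 8 falling among the 25, and 4 rising and 6 falling among the 20. Between the scramble controls the medians were -1.0 and -0.94. These are descriptions without a test.

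Among the cyclins, CDK1 and its regulators, 4 of 7 members rose in Kyse410 and none fell, while in TE10 CCNB1 rose and CDC25B fell. The share that rose in Kyse410 was 57.1%, where 22.6% of all tested genes rose and 26.7% fell. In TE10 14.3% rose and 14.3% fell, against 18.8% and 20.0% of all tested genes. CCNB1 encodes cyclin B1, the partner that activates CDK1 at mitotic entry. It read 275, 259 and 273 CPM in TE10 scramble libraries and 294, 298 and 298 with the shRNA (0.14 ± 0.043, adjusted p = 0.00666), groups that do not overlap, and this call was lost without the second TE10 scramble library (adjusted p = 0.0676). In Kyse410 its level was far lower, 48.4, 52.4 and 54.95 CPM with the scramble and 62.6, 62.4 and 66.9 with the shRNA (0.30 ± 0.057, adjusted p = 1.51e-05), again without overlap. CCNB2, cyclin B2, moved in Kyse410 from 39.01, 33.97 and 38.5 to 58.4, 65.8 and 59.5 CPM (0.72 ± 0.068, adjusted p = 5.26e-13). In TE10 it read 109, 112 and 106 (scramble) and 103, 116 and 115 CPM (shRNA) (0.03 ± 0.059, adjusted p = 0.711), with overlapping libraries, and its response differed between the lines by 0.69 ± 0.091, adjusted p = 1.26e-08. CCNA2, the cyclin of S and G2 phase, gave 0.06 in TE10 with no call and rose by 0.30 in Kyse410.

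CDK1, the kinase itself, was called in neither line. Its libraries read 130.1, 132 and 129.5 CPM (scramble) and 130.4, 137 and 130.4 (shRNA) in TE10 (0.02 ± 0.056, adjusted p = 0.799), and 87.4, 101 and 85.2 (scramble) and 95.8, 105 and 90.3 (shRNA) in Kyse410 (0.09 ± 0.057, adjusted p = 0.171), with overlap in both lines. In Kyse410 it was called higher without the second scramble library and with upper-quartile scaling (adjusted p = 0.0167 to 0.0325). CDC25B, a phosphatase that starts CDK1 activation, fell in TE10 from 353, 346 and 344 to 283, 282 and 274 CPM (-0.31 ± 0.039, adjusted p = 3.34e-09). In Kyse410 it read 548, 525 and 547 (scramble) and 566, 530.4 and 532 CPM (shRNA) and was not called (0.01 ± 0.036, adjusted p = 0.89), and the difference between the lines was 0.32 ± 0.053, adjusted p = 2.23e-06. CDC25C, a second such phosphatase, had the lowest level per length of the members in TE10 scramble libraries (rank 48 of 52 in Kyse410) and gave -0.27 in TE10 and 0.17 in Kyse410, neither called; in TE10 it was called lower without the second scramble library (adjusted p = 0.0494). CDCA3, which helps remove the CDK1 inhibitor WEE1, had the highest fold change in Kyse410, from 22.9, 19.2 and 20.9 to 39.5, 33.9 and 36.4 CPM (0.79 ± 0.083, adjusted p = 1.14e-11). In TE10 its libraries overlapped at 72.1, 77.1 and 72.01 (scramble) and 80.5, 73.7 and 73.9 CPM (shRNA) (0.04 ± 0.068, adjusted p = 0.64).

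Both transcription factors of the programme rose in both lines. FOXM1, a forkhead factor, moved from 382, 388 and 395 to 465, 456 and 458 CPM in TE10 (0.24 ± 0.038, adjusted p = 4.87e-07) and from 233, 223 and 234 to 279.8, 265 and 273 in Kyse410 (0.25 ± 0.039, adjusted p = 4.42e-07). No scramble library overlapped a shRNA library of its line, and the difference between the lines was 0.00 ± 0.054, adjusted p = 0.977. MYBL2, the B-Myb subunit that recruits FOXM1 to the MuvB core, had the highest fold change of the members in TE10, from 313, 336 and 345 to 449, 452 and 458 CPM (0.45 ± 0.041, adjusted p = 2.1e-13). In Kyse410 it went from 189, 191 and 190.4 to 216, 220.4 and 199 CPM (0.16 ± 0.043, adjusted p = 0.0015), a smaller change (-0.29 ± 0.059, adjusted p = 6.77e-05 for Kyse410 minus TE10). With FOXM1, 15.9% of the exon bases are shared with ITFG2 on the other strand, and the strand setting of the counts is not given in the sources used here.

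The 3 mitotic kinases outside the checkpoint also rose in both lines. PLK1, which promotes mitotic entry and acts at centrosomes and kinetochores, read 194, 187 and 192 CPM in the TE10 scramble libraries and 258, 256 and 258 with the shRNA (0.43 ± 0.044, adjusted p = 9.05e-12). In Kyse410 it read 45.7, 43.1 and 42.4 (scramble) and 63.4, 61.8 and 65.1 CPM (shRNA) (0.53 ± 0.057, adjusted p = 2.69e-11), and the responses were not called different (0.10 ± 0.072, adjusted p = 0.288). AURKA, the Aurora kinase of the spindle poles, went from 163, 156 and 162 to 194, 197 and 201 CPM in TE10 (0.30 ± 0.051, adjusted p = 3.56e-06) and from 41.1, 48.9 and 47.9 to 72.1, 74.8 and 64.2 in Kyse410 (0.63 ± 0.063, adjusted p = 3.31e-12). Its change was larger in Kyse410 (0.33 ± 0.082, adjusted p = 0.00107), as was that of NEK2, a kinase of centrosome separation (0.45 ± 0.099, adjusted p = 0.000187). NEK2 read 77.4, 64.8 and 80.05 (scramble) and 89.7, 87.8 and 84.5 CPM (shRNA) in TE10 (0.24 ± 0.068, adjusted p = 0.00424), without overlap although the second scramble library was low. Without that library the TE10 call of NEK2 was lost (adjusted p = 0.105). In Kyse410 it read 42.01, 38.97 and 34.96 (scramble) and 62.6, 64.1 and 60.7 CPM (shRNA) (0.69 ± 0.072, adjusted p = 9.45e-12).

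**Figure D4:**
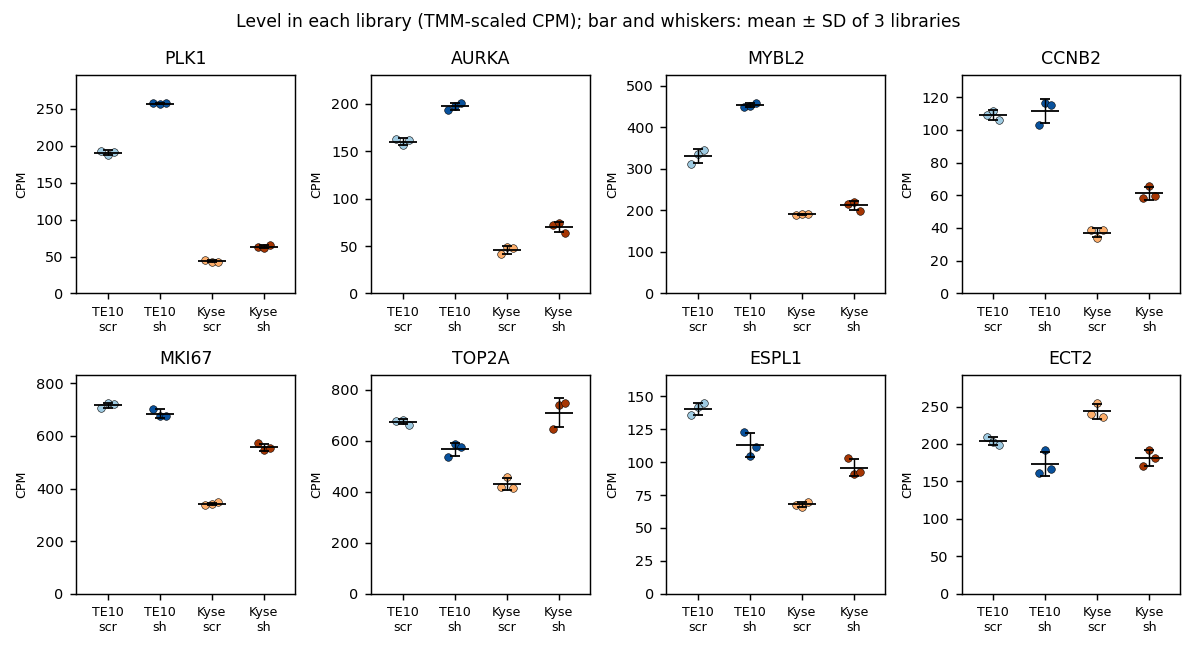
Each panel is 1 gene, with its TMM-scaled CPM in the 3 libraries of each group (scr, scramble; sh, UHRF1 shRNA; Kyse, Kyse410) as points, and bars for the mean ± SD. PLK1, AURKA and MYBL2 are higher with the shRNA in both lines, CCNB2 and MKI67 in Kyse410, TOP2A and ESPL1 move in opposite directions, and ECT2 is lower in both.

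Of the 5 spindle checkpoint genes, 3 rose in Kyse410 (BUB1, BUB1B and MAD2L1), while in TE10 MAD2L1 rose and BUB1 and TTK fell. BUB1 is a kinase that gathers checkpoint proteins at unattached kinetochores. In TE10 it read 137, 138 and 136 CPM with the scramble and 123, 124 and 126 with the shRNA (-0.14 ± 0.05, adjusted p = 0.0227), with no overlap. This TE10 call is near the threshold: it was lost on leaving out any single TE10 scramble library or the first or second shRNA library, with median-ratio scaling, with a stricter filter and in DESeq2 (adjusted p = 0.0506 to 0.169). In Kyse410 BUB1 went from 69.6, 70.3 and 72.7 to 85.95, 87.2 and 85.2 CPM (0.28 ± 0.052, adjusted p = 8.47e-06), and the difference between the lines was 0.42 ± 0.072, adjusted p = 3.65e-06. MAD2L1, which binds and blocks CDC20, read 99.2, 99.7 and 108 (scramble) and 115, 112 and 126 CPM (shRNA) in TE10 (0.20 ± 0.06, adjusted p = 0.00732) and 49.1, 50.3 and 45.4 (scramble) and 55.02, 61.5 and 51.1 (shRNA) in Kyse410 (0.22 ± 0.068, adjusted p = 0.00605). Its TE10 call was lost without the third shRNA library (adjusted p = 0.0822), and its Kyse410 call without the second shRNA or the third scramble library (adjusted p = 0.0511 to 0.0691).

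BUB1B, the BubR1 subunit of the checkpoint complex, rose by 0.27 in Kyse410 and gave 0.04 in TE10 with no call. TTK, the kinase that starts checkpoint signalling, fell by 0.22 in TE10 (adjusted p = 0.0132) and gave 0.12 in Kyse410 without a call. TTK's TE10 call was lost without the first shRNA library and in DESeq2 (adjusted p = 0.0943 to 0.145), and in Kyse410 it was called higher without the first shRNA library (adjusted p = 0.00131). BUB3, the adaptor of BUB1 and BUB1B, gave -0.05 in TE10 and 0.12 in Kyse410 (adjusted p = 0.0501). It missed the threshold narrowly in Kyse410 and passed it under 8 alternatives (adjusted p = 0.00546 to 0.0465), among them the fits without the second shRNA or the first scramble library.

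The chromosomal passenger complex corrects wrong attachments and starts cytokinesis. Its kinase AURKB rose in Kyse410 from 91.7, 90.2 and 85.7 to 124, 116 and 115 CPM (0.41 ± 0.053, adjusted p = 5.4e-09), with no overlap. In TE10 it read 99.8, 102 and 101 (scramble) and 111, 97.8 and 97.2 CPM (shRNA) (0.01 ± 0.057, adjusted p = 0.863), with overlap. INCENP, the scaffold of the complex, rose in Kyse410 from 35.7, 30.9 and 29.1 to 54.6, 50.05 and 51.3 CPM (0.70 ± 0.071, adjusted p = 5.01e-12) and read 126, 130.4 and 117 (scramble) and 128, 124 and 129 (shRNA) in TE10 (0.03 ± 0.057, adjusted p = 0.725). BIRC5 (survivin), which brings the complex to centromeres, rose by 0.19 in TE10 (adjusted p = 0.00462) and gave 0.12 in Kyse410 (adjusted p = 0.0855), and the difference was not called (-0.07 ± 0.081, adjusted p = 0.553). In Kyse410 BIRC5 was called higher without the second shRNA or the second scramble library, with upper-quartile scaling and with a stricter filter (adjusted p = 0.0158 to 0.0327). CDCA8 (borealin), the remaining subunit, gave 0.11 and 0.15, neither called. It was called higher in TE10 without the first shRNA library (adjusted p = 0.0461). In Kyse410 CDCA8 was called higher with upper-quartile scaling and with a stricter filter (adjusted p = 0.018 to 0.0338).

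Of the 8 kinetochore and centromere members, 4 fell and none rose in TE10, and 6 rose and none fell in Kyse410. Of all tested genes, 20.0% fell and 18.8% rose in TE10, and 22.6% rose and 26.7% fell in Kyse410. The TE10 pattern was not shared by 32 further kinetochore genes, of which 4 rose and 5 fell there (12.5% and 15.6%). In Kyse410, 16 of those 32 rose and 3 fell. The 4 subunits of the NDC80 complex couple kinetochores to microtubules. NUF2 had the lowest fold change of the members in TE10, from 58.9, 53.97 and 59.2 to 40.6, 48.4 and 43.1 CPM (-0.38 ± 0.079, adjusted p = 8.88e-05), and rose in Kyse410 from 27.1, 28.97 and 25.2 to 30.7, 30.9 and 35.2 (0.25 ± 0.085, adjusted p = 0.0121). The groups do not overlap in either line, although the Kyse410 call was lost without the third shRNA or the third scramble library (adjusted p = 0.0783 to 0.0983). SPC24 read 62.3, 62.2 and 64.9 (scramble) and 58.8, 52.5 and 52.3 CPM (shRNA) in TE10 (-0.21 ± 0.068, adjusted p = 0.0107) and 68.5, 71.1 and 77.4 (scramble) and 84.7, 80.9 and 80.9 (shRNA) in Kyse410 (0.18 ± 0.059, adjusted p = 0.00758). Its TE10 call was lost without the second or the third shRNA library, without the third scramble library and in DESeq2 (adjusted p = 0.0531 to 0.0589), and its Kyse410 call without the first scramble library (adjusted p = 0.0803).

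SPC25, the partner of SPC24, was among the least abundant members, at 21.3, 18.5 and 22.3 CPM in TE10 scramble libraries and 18.96, 19.6 and 17.4 with the shRNA (-0.15 ± 0.12, adjusted p = 0.299). In Kyse410 it went from 9.67, 8.06 and 7.67 to 14.1, 13.9 and 14.1 CPM (0.72 ± 0.13, adjusted p = 3.68e-06), so that the groups overlap in TE10 and not in Kyse410 (difference 0.87 ± 0.17, adjusted p = 3.7e-05). NDC80 itself gave -0.16 with no call in TE10 and rose by 0.32 in Kyse410, a call lost without the second shRNA or first scramble library (adjusted p = 0.0753 to 0.136). CENPF, a large protein of the outer kinetochore, fell in TE10 from 355, 351 and 336 to 293, 284 and 282 CPM (-0.28 ± 0.04, adjusted p = 1.09e-07) and rose in Kyse410 from 179.8, 180.2 and 178 to 219.8, 237 and 228 (0.35 ± 0.041, adjusted p = 4.51e-10). Neither line showed overlap. CENPA, the histone H3 variant that marks centromeres, rose by 0.67 in Kyse410 and gave 0.08 in TE10. CENPE, a kinetochore motor, fell in TE10 (-0.26, adjusted p = 0.00292; 0.0538 without the third scramble library) and gave -0.05 in Kyse410. CENPN, which binds CENPA nucleosomes, gave 0.13 and 0.07, neither called.

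The 8 kinesins went in several directions. In Kyse410, 4 rose (KIF11, KIF20A, KIF2C and KIF4A) and 2 fell (KIF18A and KIF20B), and in TE10 KIF4A rose and the same pair fell. KIF18A, a motor that damps chromosome movements at metaphase, fell in TE10 from 48.97, 47.5 and 49.6 to 39.1, 40.1 and 38.5 CPM (-0.31 ± 0.08, adjusted p = 0.00135). In Kyse410 it went from 39.8, 44.99 and 50.4 to 37.3, 37.03 and 37.6 (-0.27 ± 0.075, adjusted p = 0.00243); the scramble libraries were spread and the call was lost without the third of them (adjusted p = 0.0697). KIF20B, a motor of the midbody, fell from 132, 131 and 150.4 to 106, 109.9 and 117 CPM in TE10 (-0.32 ± 0.068, adjusted p = 0.000162) and from 90.8, 93.5 and 83.6 to 50.4, 64.8 and 71.6 in Kyse410 (-0.53 ± 0.071, adjusted p = 1.46e-08). This was the lowest fold change of the members in Kyse410, and its groups do not overlap in either line. KIF20A, by contrast, which moves the passenger complex to the midzone, rose in Kyse410 from 36.2, 33.4 and 33.5 to 51.5, 50.5 and 47.3 CPM (0.54 ± 0.065, adjusted p = 7.2e-10) and read 191, 201 and 186 (scramble) and 186, 194 and 194 (shRNA) in TE10 (-0.01 ± 0.048, adjusted p = 0.881).

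KIF11 (Eg5), which pushes the spindle poles apart, rose by 0.34 in Kyse410 and gave -0.01 in TE10. KIF4A, a chromosome-bound kinesin, rose by 0.38 in Kyse410 and 0.16 in TE10, where the call was lost without the third shRNA or the second scramble library (adjusted p = 0.0702 to 0.125). KIF2C, a microtubule depolymerase, rose by 0.21 in Kyse410 and gave -0.06 in TE10. It shares 175 exon bases, 4.8% of its exon length, with an antisense gene, AL592166.1 (13621 reads over the 12 libraries against 16505 for KIF2C). Reads in that stretch alone cannot be assigned without the strand. KIF14 and KIF23, motors of the midzone and cleavage furrow, gave -0.03 and 0.11 in TE10 and 0.13 and -0.003 in Kyse410, none of them called. KIF23 in TE10 was at an adjusted p of 0.0566 and passed under 6 alternatives (0.0115 to 0.0478), and KIF14 in Kyse410 was at 0.0744 and also passed under 6 (0.0139 to 0.0499). Both gained a call without the first shRNA library of that line, and KIF14 also without the second Kyse410 scramble library.

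Among 5 spindle proteins, 4 rose in Kyse410 and none fell, and in TE10 ASPM and DLGAP5 fell. NUSAP1, which bundles spindle microtubules, rose in Kyse410 from 85.2, 82.7 and 87.2 to 142, 147 and 142 CPM (0.76 ± 0.048, adjusted p = 3.66e-19). In TE10 it read 189, 179 and 183 (scramble) and 174, 188 and 182 (shRNA) (-0.01 ± 0.046, adjusted p = 0.826), with overlap, and the difference between the lines was 0.77 ± 0.067, adjusted p = 6.56e-14. ASPM, which focuses spindle poles, fell in TE10 from 184, 170.1 and 186 to 134, 152 and 134 CPM (-0.36 ± 0.052, adjusted p = 7.06e-08). In Kyse410 it rose from 109, 114 and 111 to 117, 129 and 127 (0.16 ± 0.052, adjusted p = 0.00924), and neither line had overlapping groups. HMMR, a spindle assembly protein, rose by 0.49 in Kyse410, where it stood at 10.8, 11.5 and 9.66 CPM with the scramble and 13.8, 13.6 and 17.9 with the shRNA. In TE10 it read 56.7, 60.7 and 56.8 (scramble) and 53.05, 55.97 and 57.05 CPM (shRNA), with no call (-0.07). TPX2, the activator of AURKA, rose by 0.32 in Kyse410 and gave 0.06 in TE10, where it was called higher without the first shRNA library and with a stricter filter (adjusted p = 0.00981 to 0.0337). DLGAP5, which steadies kinetochore fibres, fell in TE10 (-0.24, adjusted p = 0.007), a call lost without the first shRNA library and in DESeq2 (adjusted p = 0.0546 to 0.136), and gave 0.03 in Kyse410.

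The 3 cytokinesis genes did not move together: PRC1 rose and ECT2 and ANLN fell, in both lines. Of all tested genes, 18.8% rose and 20.0% fell in TE10, and 22.6% rose and 26.7% fell in Kyse410. ECT2, the exchange factor that activates RhoA at the cleavage furrow, fell in TE10 from 209, 202 and 199 to 162, 191 and 166 CPM (-0.23 ± 0.051, adjusted p = 0.000239) and in Kyse410 from 240.3, 254 and 236 to 171, 193 and 181 (-0.42 ± 0.048, adjusted p = 1.29e-10). No groups overlap. The change was larger in Kyse410 (-0.19 ± 0.07, adjusted p = 0.0261), but that difference was lost with upper-quartile scaling and on leaving out any of 5 libraries: the second TE10 shRNA, the second or the third TE10 scramble, the first Kyse410 shRNA or the second Kyse410 scramble (adjusted p = 0.0501 to 0.198). ANLN (anillin), a scaffold of the contractile ring, read 522, 516 and 502 (scramble) and 453, 514 and 462 CPM (shRNA) in TE10 (-0.11 ± 0.043, adjusted p = 0.0436), where the second shRNA library lay among the scramble libraries. That call was lost under 8 alternatives, among them leaving out any TE10 scramble library or the first or the third shRNA library (adjusted p = 0.0518 to 0.55). In Kyse410 ANLN went from 331, 365 and 329.7 to 272, 299 and 302 CPM (-0.23 ± 0.044, adjusted p = 1.64e-05), without overlap. PRC1, which crosslinks midzone microtubules, rose by 0.12 in TE10 and 0.31 in Kyse410. Its TE10 call was lost without the third scramble library and with no filter on low counts (adjusted p = 0.0609 to 0.0624), and it shares exon bases with its antisense gene PRC1-AS1 (8761 reads against 22840).

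Of 5 genes of the APC/C and of sister chromatid cohesion, 4 rose in Kyse410, and ESPL1 fell in TE10. The share that rose in Kyse410 was 80.0%, against 22.6% of all tested genes. The share that fell in TE10 was 20.0%, the same as over all tested genes (20.0%). ESPL1 is separase, the protease that cuts cohesin at anaphase. In TE10 it went from 136, 142 and 145 to 123, 105 and 111 CPM (-0.32 ± 0.056, adjusted p = 6.74e-06) and in Kyse410 from 67.7, 66.1 and 69.6 to 103, 91.3 and 92.5 (0.50 ± 0.058, adjusted p = 2.98e-10), with no overlap in either line. The difference between the lines was 0.81 ± 0.081, adjusted p = 5.46e-12. PTTG1 (securin), the inhibitor of separase, rose in Kyse410 from 30.6, 27.5 and 27.6 to 45.2, 44.1 and 41.4 CPM (0.61 ± 0.073, adjusted p = 6.27e-10) and read 100.3, 97.6 and 102 (scramble) and 87.7, 98.7 and 94.99 (shRNA) in TE10 (-0.09 ± 0.06, adjusted p = 0.235). CDCA5 (sororin), which protects cohesin until mitosis, rose by 0.23 in Kyse410 and gave -0.04 in TE10. UBE2C, the ubiquitin-conjugating enzyme that works with the APC/C, rose by 0.30 in Kyse410 and gave 0.10 in TE10, where it was called higher without the second shRNA library (adjusted p up to 0.0442 over 3 alternatives). CDC20, the mitotic activator of the APC/C, gave 0.08 and -0.01, with no call in either line. With the stricter filter it was called higher in TE10 (adjusted p = 0.0321).

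TOP2A and MKI67 belong to mitotic chromosomes. TOP2A, the topoisomerase that untangles sister chromatids, had the largest difference between the lines (0.97 ± 0.06, adjusted p = 4.42e-19). It fell in TE10 from 676, 683 and 664 to 538, 588 and 575 CPM (-0.25 ± 0.043, adjusted p = 3.61e-06) and rose in Kyse410 from 420.1, 459 and 417 to 646, 739 and 747 (0.72 ± 0.042, adjusted p = 1.64e-20). The groups do not overlap in either line, and 2 of the 3 Kyse410 shRNA libraries exceeded every TE10 library. MKI67, the Ki-67 protein that coats mitotic chromosomes and is the common proliferation marker, rose in Kyse410 from 338, 339 and 347 to 572, 546 and 554 CPM (0.71 ± 0.036, adjusted p = 3.26e-23). In TE10 it read 705, 724 and 720.1 (scramble) and 703, 674 and 675 CPM (shRNA) (-0.07 ± 0.035, adjusted p = 0.132); all 3 shRNA libraries lay under the scramble libraries, but the change was not called.

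By a cruder reading of the libraries, 14 members had all TE10 shRNA libraries above all scramble libraries and 16 below, against 23.1% and 23.8% of tested genes. In Kyse410 these counts were 37 and 4, against 25.6% and 30.0%. Longer members tended to lower fold changes: the Spearman correlation with exon length was -0.33 in TE10 and -0.21 in Kyse410 over 52 members, beside -0.13 and -0.07 over 15588 tested genes with a length. These genes share libraries and depth, and the correlations are descriptions.

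The lines also differed before any knockdown. In the scramble controls, 24 members differed by at least 2-fold between the lines, all of them lower in Kyse410. Of the 16060 tested genes, 4589 differed by as much in either direction. KIF20A was lowest relative to TE10, at 36.2, 33.4 and 33.5 CPM against 191, 201 and 186 (-2.48 ± 0.057, adjusted p = 1.53e-39), followed by HMMR at 10.8, 11.5 and 9.66 against 56.7, 60.7 and 56.8 (-2.44 ± 0.096, adjusted p = 6.79e-29) and CCNB1 (-2.37 ± 0.051, adjusted p = 6.24e-41). PLK1 stood at 45.7, 43.1 and 42.4 CPM against 194, 187 and 192 (-2.12 ± 0.052, adjusted p = 3.61e-38), INCENP at 35.7, 30.9 and 29.1 against 126, 130.4 and 117 (-1.96 ± 0.066, adjusted p = 6.3e-32) and AURKA at 41.1, 48.9 and 47.9 against 163, 156 and 162 (-1.81 ± 0.059, adjusted p = 1.83e-32). The libraries of the 2 lines are far apart for all 6 genes. CDC25B ran the other way, at 548, 525 and 547 CPM in Kyse410 and 353, 346 and 344 in TE10 (0.64 ± 0.037, adjusted p = 1.93e-21), as did ECT2 (0.26 ± 0.048, adjusted p = 4.59e-06) and SPC24 (0.19 ± 0.063, adjusted p = 0.00515). For SPC24 the call was lost without the third Kyse410 scramble library (adjusted p = 0.0664). CDC25C and KIF18A were not called between the lines, although KIF18A was called without the third Kyse410 scramble library (adjusted p = 0.0223). Without overlap of libraries, 46 members were lower and 3 higher, against 38.3% and 37.8% of tested genes.

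MYBL2 and FOXM1 were lower in Kyse410 by 0.80 and 0.76 on the log2 scale, CDK1 by 0.52, BUB1 by 0.95, TOP2A by 0.64, MKI67 by 1.07 and AURKB by 0.18. AURKB, CENPA and CDCA5 were the called members nearest to equality among those lower in Kyse410. The calls of CENPA and CDCA5 were each lost under 8 alternatives, including leaving out the second or the third scramble library of either line (adjusted p = 0.0502 to 0.176 for CENPA and 0.0524 to 0.259 for CDCA5). After knockdown in Kyse410, 7 members had a mean above that of TE10 scramble cells: CDC25B, CDC25C, AURKB, CENPA, SPC24, CDCA5 and TOP2A. Of these, CDC25B, SPC24 and CDC25C were above it already in Kyse410 scramble cells, at 155.3%, 114.6% and 109.8% of the TE10 scramble mean. ECT2 went from 119.7% of that mean with the Kyse410 scramble to 89.3% with the shRNA. In level per length, TPX2 was highest in TE10 scramble cells at 155 CPM per kilobase of exon, followed by CDC20 at 127, MYBL2 and UBE2C both at 119 and CCNB1 at 105. In Kyse410 scramble cells CCNB1 stood at 20.3 CPM per kilobase, rank 19 of the 52, beside rank 5 in TE10. NDC80 at 7.92 and CDC25C at 5.62 were the lowest in TE10.

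**Figure D5:**
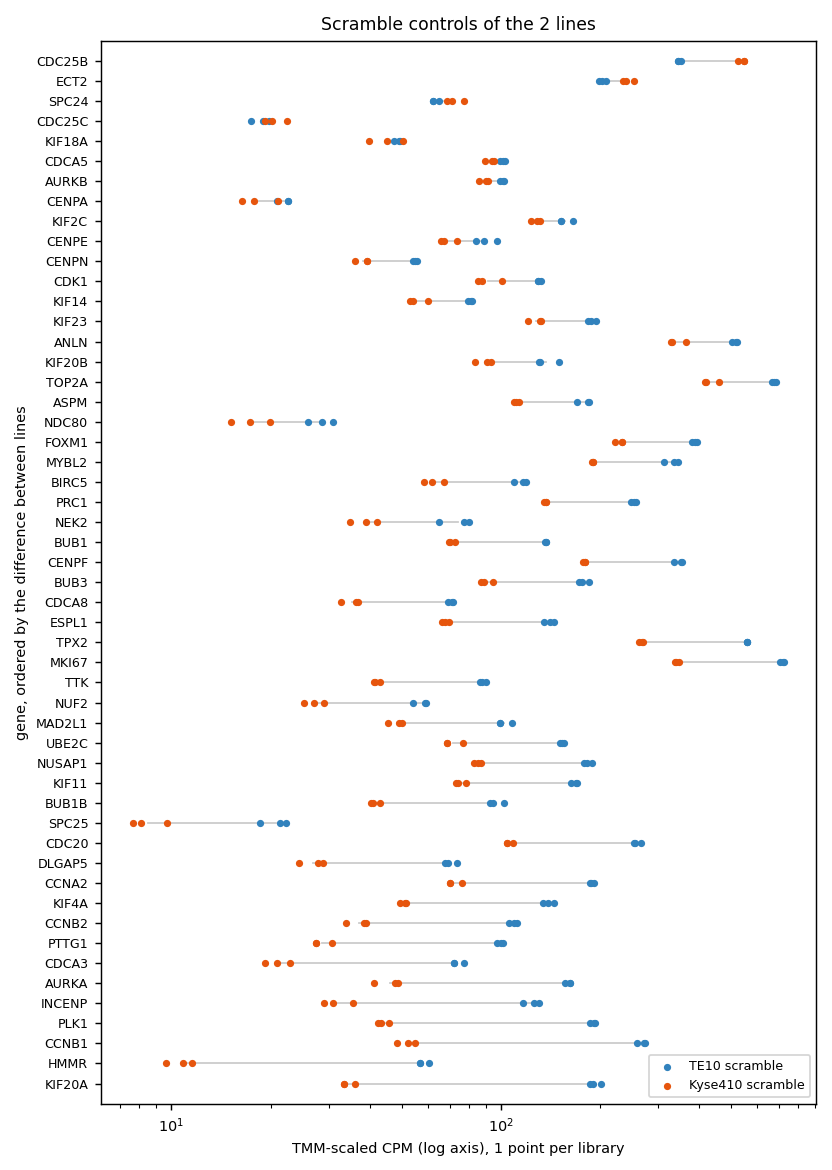
TMM-scaled CPM on a log axis for each of the 52 genes in the scramble libraries, 3 points for TE10 (blue) and 3 for Kyse410 (orange), ordered by the difference between the lines. Kyse410 points lie left of TE10 points for nearly all genes, farthest for KIF20A, HMMR and CCNB1, and right of them for CDC25B, ECT2 and SPC24.

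Other mitosis genes were counted from a list of 127, all tested. In Kyse410, 63 rose and 21 fell, with a median of 0.17, and in TE10 24 rose and 27 fell, with a median of 0.00. As shares of this list, 49.6% rose and 16.5% fell in Kyse410, against 22.6% and 26.7% of all tested genes. In TE10 18.9% rose and 21.3% fell, near the 18.8% and 20.0% of all tested genes. The difference was higher in Kyse410 for 53 and lower for 20 (41.7% and 15.7%, against 19.0% and 19.9% of all tested genes). The scramble level was lower in Kyse410 for 92 and higher for 21 (72.4% and 16.5%, against 37.1% and 36.7%). By role, 17 of 23 further spindle and centrosome genes rose in Kyse410 and 1 fell, and 16 of 32 further kinetochore genes rose and 3 fell. Among 17 condensin and cohesin genes, 9 rose and 2 fell. Of 17 further APC/C genes, 1 rose, 7 fell and 9 were not called, with a median of -0.09; the share that fell was 41.2%, against 26.7% of all tested genes.

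Among regulators of mitotic entry, CCNF, the cyclin of an SCF ubiquitin ligase, rose in TE10 from 86.7, 96.2 and 92.2 to 125, 129 and 127 CPM (0.47 ± 0.058, adjusted p = 2.07e-09) and in Kyse410 from 26.3, 29.4 and 27.4 to 58.7, 53.1 and 52.2 (0.98 ± 0.07, adjusted p = 2.8e-17). CDC25A rose by 0.52 and 0.55 in TE10 and Kyse410, and PKMYT1, a kinase that inhibits CDK1, by 0.30 and 0.38. WEE1, another such kinase, fell by 0.25 and 0.35. Of the 15 genes of the E2F and MuvB group, 7 rose and 3 fell in Kyse410 (46.7% and 20.0%, against 22.6% and 26.7% of all tested genes). In TE10 4 rose and 3 fell (26.7% and 20.0%, against 18.8% and 20.0%). E2F1, an activator of S phase genes, rose by 0.63 in TE10 and 0.62 in Kyse410. RBL1 fell in both lines (-0.246 and -0.255). RBL2 and TFDP2 fell in TE10 (-0.381 and -0.432) and rose in Kyse410 (0.294 and 0.241). E2F4 and E2F3 fell in Kyse410 (-0.407 and -0.159). E2F7, a repressor of E2F targets, had the highest fold change of the 127 in Kyse410, from 37.2, 37.03 and 39.4 to 99.3, 99.2 and 97.1 CPM (1.38 ± 0.063, adjusted p = 6.38e-25), and gave 0.01 in TE10 (adjusted p = 0.956).

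Of the structural genes, NDE1, a dynein regulator, rose by 0.92 in Kyse410, LMNB1 (lamin B1) by 0.91, the kinetochore protein ZWINT by 0.82 and the condensin subunit NCAPD2 by 0.77. In TE10 these gave 0.05, 0.06, 0.01 and 0.12, of which NCAPD2 alone was called. The APC/C subunit CDC27 fell in both lines, by 0.49 in TE10 and 0.41 in Kyse410. FBXO5, an inhibitor of the APC/C, fell in TE10 (-0.27, adjusted p = 0.00179) and rose in Kyse410 (0.54, adjusted p = 3.32e-09). Of 40 DNA replication genes, 37 rose and none fell in Kyse410 (92.5% rose, against 22.6% of all tested genes), with a median of 0.47. In TE10 12 rose and 7 fell, with a median of 0.04. These are 30.0% and 17.5%, against 18.8% and 20.0% of all tested genes, so that the share that fell is near its background. Between the scramble controls 37 of the 40 were lower in Kyse410 and none was higher (92.5% lower, against 37.1%).

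Features of the libraries that moved with these results were measured. The share of gene reads from mitochondrially encoded genes was 2.30 to 2.43% in Kyse410 scramble libraries and 3.79 to 4.0% with the shRNA, and 5.95 to 6.05% and 4.95 to 5.73% in TE10. With those genes removed before scaling, an alternative added after seeing the data, 206 of 208 member results kept their call and 2 gained one. Epithelial and squamous markers were tested for 12 of 14 genes, and their summed level was 5756 to 5824 CPM and 5735 to 6012 in TE10 (scramble, shRNA) and 2995 to 3101 and 3750 to 3948 in Kyse410. KRT8, KRT18 and DSP made up most of that sum, and single markers moved in TE10, where 6 of the 12 fell and 5 rose. The basal keratin KRT5 fell there from 67.4 ± 1.06 to 8.05 ± 0.46 CPM (-3.06 ± 0.12, adjusted p = 4.21e-28) and KRT14 from 55.2 ± 1.34 to 11.3 ± 0.99 (-2.28 ± 0.12, adjusted p = 5.66e-23). KRT17, KRT6A, TP63 and DSP fell by 1.19, 0.76, 0.69 and 0.45 on the log2 scale, while CDH1 (E-cadherin), KRT19, JUP, EPCAM and KRT18 rose by 1.20, 1.07, 0.84, 0.73 and 0.09. In Kyse410 8 of the 12 rose and 3 fell (KRT14, KRT17 and DSP). SOX2 and PKP1 were near 0 and KRT5 was nearly absent in Kyse410 (1.14 ± 0.57 CPM with the scramble). None of 12 blood cell markers was tested (sum at most 2.38 CPM). Fibroblast markers summed to 43.9 to 56.4 CPM in TE10 and in Kyse410 to 113.8 to 124.0 with the scramble and 149.8 to 162.5 with the shRNA, nearly all of it COL1A1, while DCN was at 0 in 3 of the 4 groups. Of the 2 that were tested, COL1A1 rose by 0.26 in TE10 and 0.43 in Kyse410. PDGFRB, at a low level, fell in both lines (-2.25, adjusted p = 1.42e-06 in TE10, and -0.74, adjusted p = 0.00517 in Kyse410). Of the endothelial list only CDH5 was tested, at 24.7, 24.6 and 24.9 CPM in Kyse410 scramble libraries and 104, 91.9 and 90.7 with the shRNA, while VWF and KDR stayed near 0. The part of these features in the members' changes was not tested.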

How the data were processed

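Counts of polyadenylated RNA from 12 libraries, 3 in each of 4 groups, were analysed; the groups and replicate numbers come from the titles. The deposited values are raw counts per gene, whole reads as the authors' counter wrote them; per the submitters' processing notes the tools were bcl2fastq 2.19, HISAT2 2.1.0, HTSeq 0.9.1 and DESeq2 on GRCh37.p13, with annotation release and strand setting not given in the sources used here. Reads given to no gene stayed out of library sizes. Of 57820 identifiers, 51996 (98.89% of gene reads) were matched to symbols of GENCODE v29, which is of GRCh38 and gave exon lengths and overlaps alone; UHRF1 was named by hand from ENSG00000034063.

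Genes were kept by filterByExpr (16060), scaled by TMM and fitted with edgeR 4.0.16 (limma 3.58.1, R 4.3.3) in 1 quasi-likelihood model of the 4 group means (8 residual degrees of freedom), with Benjamini-Hochberg adjustment over the 16060 genes and a threshold of 0.05. The test moderates each gene's spread towards that of all tested genes, so its p-values rest on more than these 8 degrees of freedom. CPM are TMM-scaled. The shRNA was compared with the scramble in each line, then came the difference of these (Kyse410 minus TE10) and Kyse410 minus TE10 scramble. The procedure was first tested on simulated data.

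The members, the other lists and the rule for full values were chosen with earlier results of these data known. The rule took CDK1, CCNB1, FOXM1, MYBL2, PLK1, AURKA, AURKB, BUB1, TOP2A and MKI67, the 6 largest called rises and falls per comparison with a mean of at least 5 CPM, and the 3 smallest adjusted p per direction and other list; PTTG1 and CENPF were given in full after their values were seen. Alternatives were median-ratio and upper-quartile scaling, DESeq2 1.42.0, other filters, only the groups compared, a replicate block, each library left out, and scaling without mitochondrially encoded genes. Tables and plots used Python 3.11.15, pandas 2.3.3, numpy 2.4.6 and matplotlib 3.10.9.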

Additional observations from a re-analysis of the deposited data

Results flagged for a closer look

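The 36 members below had a response to the shRNA that differed between the lines in the test of the difference itself, given as the log2 change in Kyse410 minus that in TE10. For the 7 that fell in TE10 and rose in Kyse410 it was TOP2A 0.969, ESPL1 0.813, NUF2 0.63, CENPF 0.625, ASPM 0.523, BUB1 0.422 and SPC24 0.397. For the 19 that rose in Kyse410 without a call in TE10 it was SPC25 0.873, MKI67 0.772, NUSAP1 0.77, CDCA3 0.747, PTTG1 0.698, CCNB2 0.688, INCENP 0.669, CENPA 0.587, HMMR 0.556 and KIF20A 0.546, then NDC80 0.475, AURKB 0.392, KIF11 0.34, CDCA5 0.278, KIF2C 0.265, TPX2 0.255, CCNA2 0.245, BUB1B 0.236 and UBE2C 0.2. For 4 that rose in both lines, more in Kyse410, it was NEK2 0.454, AURKA 0.325, KIF4A 0.221 and PRC1 0.188. CDC25B and TTK, which fell in TE10 without a call in Kyse410, had 0.321 and 0.344, and CDC25C and BUB3, called in neither line, had 0.44 and 0.167. The response was lower in Kyse410 for MYBL2, at -0.291, and for ECT2, at -0.191.

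The difference lost its call for BUB3 on leaving out any of 8 libraries (adjusted p up to 0.152): all 3 TE10 shRNA, the first and the third TE10 scramble, the third Kyse410 shRNA and the second and the third Kyse410 scramble. For BUB1B it was lost without the first or the third TE10 shRNA, the first TE10 scramble, the third Kyse410 shRNA or the second or the third Kyse410 scramble (up to 0.0958). For UBE2C it was lost without the second TE10 shRNA, the first or the third TE10 scramble or the first or second Kyse410 scramble (up to 0.107), and for KIF4A without the first TE10 shRNA, the third TE10 scramble or the second Kyse410 scramble (up to 0.0954). CDC25C lost it without the first TE10 shRNA or the third TE10 scramble (up to 0.0949), NDC80 without the first Kyse410 scramble (0.0578) and TTK without the third Kyse410 shRNA (0.0587). In DESeq2 the call was also lost for BUB3, BUB1B, UBE2C, KIF4A and CDC25C, and 29 members had a higher response in Kyse410. BUB3 lost it with median-ratio size factors and with the stricter filter as well. The upper values given for these genes cover all alternatives.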

How the results depend on the processing

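Medians and counts of members were recomputed under each alternative, and no member's call reversed: of 3172 member values, 3020 kept their call, 96 lost it and 56 gained one. The median of the members in TE10 sat near 0 and took either sign: 0.01 with median-ratio size factors, 0.019 with a stricter filter and 0.008 in DESeq2, and -0.022 to 0.032 on leaving out 1 library. In Kyse410 it was 0.326 with upper-quartile scaling, 0.304 with the stricter filter, 0.303 with only the 2 groups compared and 0.254 to 0.289 with 1 library left out. The median difference between lines was 0.329 with upper-quartile scaling, 0.298 with no filter and 0.267 to 0.307 with 1 library left out; 1 member was called lower with upper-quartile scaling and 1 to 3 with 1 library left out (1 without the second TE10 shRNA library, 3 without the first). Between the scramble controls the median was -0.935 with median-ratio factors, -0.909 with upper-quartile scaling, -0.934 in DESeq2 and -1.012 to -0.95 with 1 library left out. With 150 bases before the start, 1 member held E2F letters. Over all tested genes the median moved as well under some of these alternatives. In TE10 it was 0.001 in the main fit, 0.024 with median-ratio size factors, 0.033 with the stricter filter and 0.0 in DESeq2. In Kyse410 it was -0.025 in the main fit and 0.023 with upper-quartile scaling. Between the scramble controls it was -0.002 in the main fit and 0.054 with upper-quartile scaling. The cause of these shifts was not tested.

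In TE10, 12 members rose and 13 fell with median-ratio size factors, 14 rose and 13 fell with the stricter filter, and 11 rose and 10 fell in DESeq2. Over all tested genes the balance turned as well. In the main fit 3019 of 16060 rose and 3212 fell, and with median-ratio size factors 3375 rose and 2984 fell. With the stricter filter 3518 of 15747 rose and 2892 fell, and in DESeq2 2644 of 17828 rose and 2438 fell. With 1 library left out, 7 to 13 members rose and 11 to 14 fell in TE10, 33 to 38 rose and 3 to 4 fell in Kyse410, 6 to 10 rose in both lines, 5 to 8 fell in TE10 and rose in Kyse410, and 30 to 36 had a higher response in Kyse410. Replicate numbers are shared across groups but did not pair the libraries: deviations of same-numbered libraries correlated at -0.05 to 0.04, those of others at -0.06 to 0.04. With the replicate block 11 members rose and 15 fell in TE10, 36 rose and 4 fell in Kyse410, and the difference was higher for 35 and lower for 3; no member's call was lost. Depth limits the least abundant members most, since the lowest count of a member in a library was 79 reads.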
